A study of Mus musculus with 12 samples.

Results

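Of the 36047 genes in the table, 4 were chosen by symbol because their RNA rose most from the α4β7+ subset of small intestinal (SI) eosinophils to the other subsets: *B3galt5*, *Nfasc*, *Klra17*, and *Myh7b*. All 4 had 1 row each in the table, and all 4 passed the filter of an average normalized count above 10, as did 15249 genes in all. Their differences from the α4β7+ subset were the reason they were picked, so these are given as descriptions without a test. The working name of the group calls them genes without a known role in eosinophils, which expression values cannot test. The comparison of CD22+ with α4β7− CD22− eosinophils was not named by the rule and was tested, but genes picked for high CD22+ values tend to be higher in CD22+ than in α4β7− CD22− as well, so its results are not independent of the choice.

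The study isolated eosinophils of the proximal SI lamina propria and sorted them by the integrin α4β7 and the lectin CD22, to follow how eosinophils change during residence in the tissue. The subsets were α4β7+ (a4b7+ in the labels), α4β7− CD22− (a4b7- CD22-), and CD22+, with 4 libraries each and 2 mice pooled per library. All libraries came from female wild type C57BL/6J mice on standard chow, per the labels, and the methods give an age of 6 to 12 weeks for mice of all experiments. Eosinophils were gated as SiglecF+ CD11b+ cells among live CD45+ cells, without MHCII or Ly6G, and 3 ng of total RNA per library entered a stranded kit for small inputs. The unit throughout is the normalized count that the authors obtained from DESeq2, and every difference below is on the scale log2(normalized count + 1), which understates the change of low genes. Folds are those of the mean log2 values and can differ from the ratio of the means where a library stands apart.

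Library totals ran from 14286474 to 16915755 normalized counts, and a floor of 3 reads corresponded to about 2.56 to 3.48 normalized counts. Every value of the 4 genes lay above that floor, and it covers counting error only. The genes of the sort followed the labels: *Itgb7*, the β7 chain, was at 1838 to 3058 normalized counts in α4β7+ and at 99 to 304 in the other subsets, and *Cd22* was at 987 to 1364, 3693 to 5819, and 11553 to 14766 in α4β7+, α4β7− CD22−, and CD22+. All 13 eosinophil markers had a mean above 10 over the libraries, and their summed level was 130600 to 145400, 107400 to 116100, and 87240 to 96270 in the same order. With sorted bulk RNA, fewer cells that express a gene and less RNA of it per cell cannot be told apart.

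The 4 genes encode unrelated kinds of protein, and each is best known from another cell type. *B3galt5* encodes a β1,3-galactosyltransferase of the Golgi that builds type 1 sugar chains and globo-series glycolipids and is well known from gut epithelium. *Nfasc* encodes neurofascin, an adhesion molecule of the L1 immunoglobulin family that holds nodes of Ranvier and axon initial segments together and whose tail binds ankyrins. *Klra17* encodes Ly49Q, a killer lectin-like receptor with an inhibitory signalling motif that binds classical MHC class I. Unlike most receptors of its family, Ly49Q is known from plasmacytoid dendritic cells and myeloid cells rather than from natural killer cells. *Myh7b* encodes a slow muscle myosin heavy chain and is the host gene of the microRNA miR-499.

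The genes lay on 4 chromosomes, so they shared no locus (GRCm38). *B3galt5* (ENSMUSG00000074892) spanned chr16:96235801-96319859 on the plus strand, and *Nfasc* (ENSMUSG00000026442) spanned chr1:132564690-132741797 on the minus strand. *Klra17* (ENSMUSG00000014543) spanned chr6:129831154-129876672 on the minus strand, and *Myh7b* (ENSMUSG00000074652) spanned chr2:155611212-155634307 on the plus strand. Mature miR-499-5p lay at chr2:155622893-155622913 in intron 19 of a *Myh7b* transcript of 42 exons, and the microRNA itself was not analysed here. Of all stretches of 31 bases in the transcripts of each gene, between 0.217% and 0.337% also occurred in another gene, and no test of single reads was made. The other genes numbered 2 for *B3galt5*, 1122 for *Nfasc*, 1 for *Klra17* (*Klra13-ps*, a pseudogene of the same family), and 8 for *Myh7b*, among them *Trpc4ap*, which overlaps it and had a mean of 2471 over the libraries.

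The promoter windows are shown so that the start sites of 4 genes with a common expression pattern can be compared. Each is a window of 300 bases that ends just after a RefSeq transcription start (GRCm38.p6), written 5′ to 3′ on the strand of the gene, and it is the window nearest to an annotated coding transcript. Capitals mark exact matches, on either strand, to 5 motifs, and no matches overlapped. The motifs searched were AGGTCA, a nuclear receptor half-site that retinoid receptors among others bind, and GCGTG, the core of the aryl hydrocarbon receptor element. The E-box was searched as CACGTG, the common site of the Gata factors as AGATAA, and the box bound by the general factor TBP as TATAAA. The windows are chr16:96235551-96235850 (plus) for *B3galt5*, chr1:132707277-132707576 (minus) for *Nfasc*, chr6:129876623-129876922 (minus) for *Klra17*, and chr2:155610993-155611292 (plus) for *Myh7b*.
B3galt5: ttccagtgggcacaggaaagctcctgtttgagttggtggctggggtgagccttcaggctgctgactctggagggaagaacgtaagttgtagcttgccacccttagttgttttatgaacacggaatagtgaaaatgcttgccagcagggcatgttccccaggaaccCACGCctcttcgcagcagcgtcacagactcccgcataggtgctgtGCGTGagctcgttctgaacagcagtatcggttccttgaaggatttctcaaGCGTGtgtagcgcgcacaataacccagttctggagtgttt
Nfasc: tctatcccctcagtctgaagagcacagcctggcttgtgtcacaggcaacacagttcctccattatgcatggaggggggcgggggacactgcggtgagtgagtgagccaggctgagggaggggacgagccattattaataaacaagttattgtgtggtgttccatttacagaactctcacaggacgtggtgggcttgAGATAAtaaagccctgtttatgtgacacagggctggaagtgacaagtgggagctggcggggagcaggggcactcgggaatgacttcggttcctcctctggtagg
Klra17: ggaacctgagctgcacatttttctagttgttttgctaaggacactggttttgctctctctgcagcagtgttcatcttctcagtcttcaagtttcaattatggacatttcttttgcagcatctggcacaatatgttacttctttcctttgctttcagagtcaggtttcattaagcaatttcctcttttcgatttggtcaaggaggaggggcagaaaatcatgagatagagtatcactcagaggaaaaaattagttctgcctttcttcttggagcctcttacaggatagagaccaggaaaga
Myh7b: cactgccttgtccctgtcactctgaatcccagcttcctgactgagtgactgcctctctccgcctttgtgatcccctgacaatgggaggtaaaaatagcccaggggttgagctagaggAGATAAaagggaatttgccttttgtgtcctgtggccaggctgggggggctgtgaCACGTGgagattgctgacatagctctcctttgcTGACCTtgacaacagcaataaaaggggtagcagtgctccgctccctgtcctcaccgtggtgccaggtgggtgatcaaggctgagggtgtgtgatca
The windows shared no motif that all of them held. The *B3galt5* window held GCGTG 3 times, the *Nfasc* window held AGATAA at position -54 from the start, and the *Klra17* window held none of the 5 motifs. The *Myh7b* window held AGATAA at -133, CACGTG at -79, and AGGTCA on the opposite strand at -46. Of 32851 promoter windows of this length, 16.3% held AGGTCA, 32.4% GCGTG, 11.2% AGATAA, 7.15% CACGTG, and 13.6% TATAAA, so each match is a common one. *B3galt5* had 2 further windows and *Nfasc* 1 further window, at other starts, and these are not printed. In them AGGTCA was found on the opposite strand at -192 for *B3galt5* and as printed at -136 for *Nfasc*, and CACGTG at -53 for *B3galt5*, so over all 7 windows 3 of the 4 genes had an AGGTCA match.

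*B3galt5* had normalized counts of 10.46, 26.42, 32.25, and 37.09 in α4β7+ replicates 1 to 4. It was at 124.2, 176.0, 171.7, and 260.0 in α4β7− CD22− and at 467.9, 546.7, 528.2, and 662.3 in CD22+. The libraries of the 3 subsets did not overlap, and in each subset replicate 1 was the lowest and replicate 4 the highest. The means of *B3galt5* were 26.6 ± 11.6, 183 ± 56.5, and 551 ± 81.3 (SD, n = 4), differences from α4β7+ of 2.82 (7.08-fold) and 4.45 (21.8-fold).

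*Nfasc* had normalized counts of 193.9, 6.034, 32.54, and 24.74 in α4β7+ replicates 1 to 4. It was at 299.5, 189.0, 312.8, and 189.3 in α4β7− CD22− and at 756.2, 808.7, 672.7, and 622.8 in CD22+. Replicate 1 of α4β7+ stood apart from the other α4β7+ libraries and exceeded the lowest α4β7− CD22− libraries, so these subsets overlapped, whereas every CD22+ library was above all others. The means were 64.3 ± 87.1, 248 ± 67.8, and 715 ± 83.2 (SD, n = 4), and the differences from α4β7+ were 2.87 (7.33-fold) and 4.43 (21.6-fold). The ratios of these means were lower, 3.85 and 11.1, because the 193.9 raises the α4β7+ mean more than the mean of its logs. These differences turned on single α4β7+ libraries: they were 3.73 and 5.29 without replicate 1, the highest, and 2.13 and 3.69 without replicate 2, the lowest.

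*Klra17* had normalized counts of 15.37, 13.45, 7.532, and 10.34 in α4β7+ replicates 1 to 4. It was at 119.2, 58.24, 39.55, and 127.3 in α4β7− CD22− and at 321.8, 222.2, 186.4, and 325.9 in CD22+. The subsets did not overlap, and replicate 3 was the lowest library of each. The summed B and plasma cell markers were also lowest in replicate 3 of α4β7− CD22− (34090, 18980, 12380, and 35110 in replicates 1 to 4) and of CD22+ (32080, 37900, 17230, and 36790). In α4β7+ they were not (16970, 34980, 20030, and 25730). This list was singled out after the values were seen. Macrophage markers were lowest in replicate 3 of α4β7− CD22− too (11650), but not of α4β7+ or CD22+. Dendritic cell markers were highest in replicate 4 of α4β7− CD22− (5905) and CD22+ (8041), as *Klra17* was. In α4β7+ the dendritic cell sum was highest in replicate 2 (5196) and *Klra17* in replicate 1. The part of these markers in the *Klra17* values was not tested. The means of *Klra17* were 11.7 ± 3.45, 86.1 ± 43.8, and 264 ± 70.6 (SD, n = 4), differences from α4β7+ of 2.67 (6.34-fold) and 4.39 (21-fold). With a pseudocount of 10 these differences were 2.04 and 3.64.

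*Myh7b* had normalized counts of 24.27, 19.57, 21.01, and 15.19 in α4β7+ replicates 1 to 4. It was at 345.3, 190.4, 254.8, and 326.6 in α4β7− CD22− and at 414.1, 401.6, 374.5, and 461.9 in CD22+. The subsets did not overlap, and the gap between α4β7+ and α4β7− CD22− was wider than that between α4β7− CD22− and CD22+. The means were 20.0 ± 3.77, 279 ± 70.9, and 413 ± 36.5 (SD, n = 4), differences from α4β7+ of 3.72 (13.2-fold) and 4.31 (19.9-fold).

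**Figure D1:**
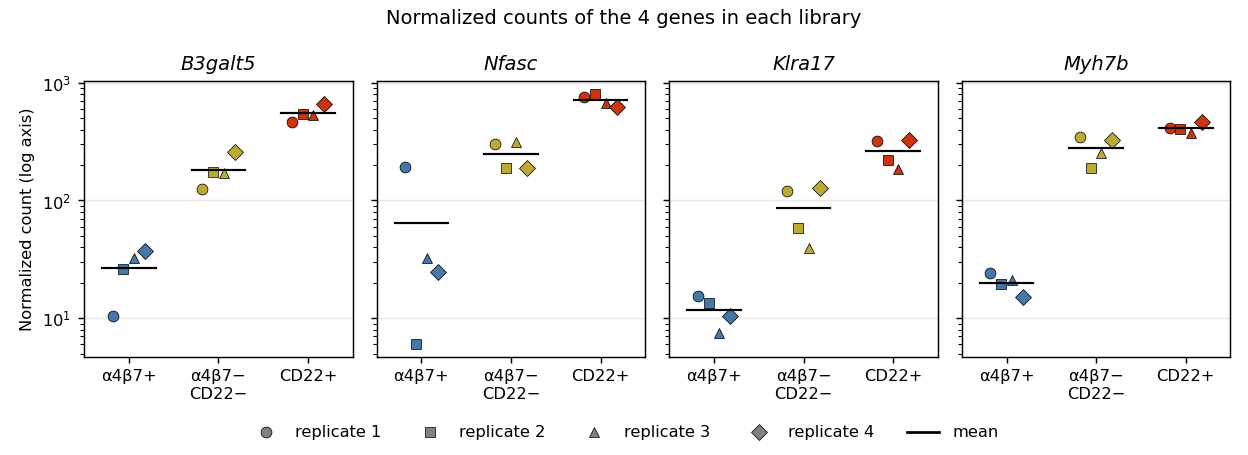
Normalized count (log axis) of *B3galt5*, *Nfasc*, *Klra17*, and *Myh7b* in each of the 12 libraries, by subset, with a symbol for each replicate number and a bar for the subset mean. *Nfasc* is the 1 gene whose subsets overlap, with α4β7+ replicate 1 at 193.9 above α4β7− CD22− replicates 2 and 4 at 189.0 and 189.3.

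The order of the subsets was the same for the 4 genes, with the lowest mean in α4β7+ and the highest in CD22+. Among all genes tested, 8.96% had every α4β7− CD22− library above every α4β7+ library and 11% had every CD22+ library above every α4β7+ library, and nothing is read from the members' counts of 3 and 4, since the choice fixed them. The genes differed in how much of the log2 difference between α4β7+ and CD22+ was already present in α4β7− CD22−. That share was 63.5% for *B3galt5*, 64.8% for *Nfasc*, 60.7% for *Klra17*, and 86.2% for *Myh7b*. The spread within a subset also differed: the coefficient of variation was lowest in CD22+ for each gene (8.84% for *Myh7b* to 26.7% for *Klra17*), and the highest value was that of *Nfasc* in α4β7+, at 135%.

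Ranked over all tested genes by the smaller of the differences from α4β7+, *Myh7b* was at rank 1, *Nfasc* at 9, *B3galt5* at 10, and *Klra17* at 18. The list down to *Klra17* therefore held 14 genes that are not members, among them 4 immunoglobulin segments, and the members are not simply its first entries. By the difference of CD22+ from α4β7+, the 4 genes were at ranks 6 to 12. In the ranking by the smaller difference, *Klra17* was the last member with 2.67 (α4β7− CD22− against α4β7+), and the next gene below it, *Gm13283*, had 2.66.

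**Figure D2:**
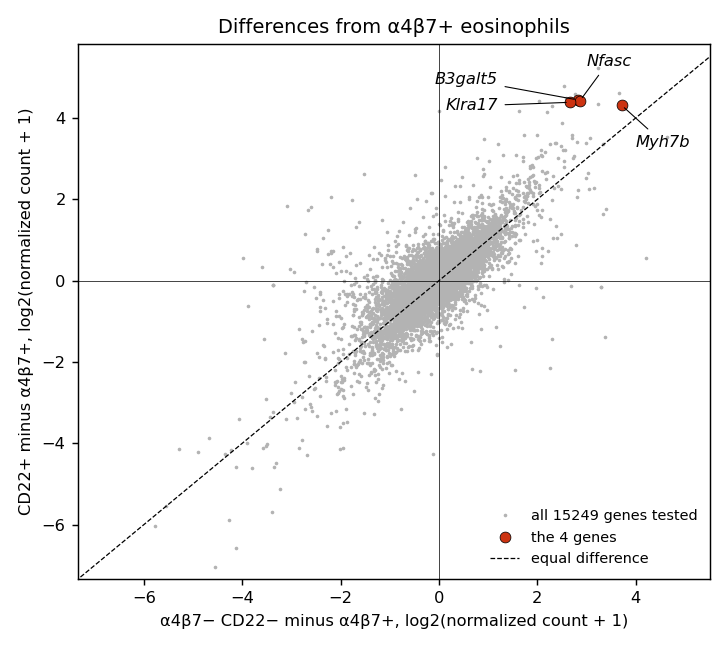
Difference of α4β7− CD22− (x axis) and of CD22+ (y axis) from α4β7+ eosinophils, in log2(normalized count + 1), for the 15249 genes tested, with the 4 genes in red and a dashed line of equal difference. The axes share the α4β7+ libraries; *B3galt5*, *Nfasc*, and *Klra17* sit above the dashed line, at 2.67 to 2.87 on the x axis, and *Myh7b* nearer to it, at 3.72.

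Levels per kilobase of exon were taken over all annotated exons of a gene, not over the transcript expressed, so they compare genes only roughly. On this scale the 4 genes were low in α4β7+ eosinophils. In CD22+ eosinophils they ran from near the middle of all tested genes (*Nfasc*, *Myh7b*) to the upper part (*Klra17*). In α4β7+ the mean level was 4.31 normalized counts per kilobase for *B3galt5*, 4.55 for *Nfasc*, 9.79 for *Klra17*, and 3.02 for *Myh7b*, and between 4.74% and 19.3% of the tested genes were lower. In CD22+ the levels were 89.5, 50.6, 222, and 62.3 normalized counts per kilobase in the same order. *Klra17*, the shortest of the 4 with 1192 exonic bases, was then higher than 79.8% of the tested genes, and *Nfasc*, the longest with 14145, was higher than 47.8%.

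CD22+ eosinophils were then compared with α4β7− CD22− eosinophils, to ask whether the members also differed between the subsets other than α4β7+. *B3galt5* rose by 1.62 (SE 0.321, 95% interval 0.936 to 2.311, limma adjusted p = 0.0245) and *Klra17* by 1.72 (SE 0.365, interval 0.944 to 2.504, limma adjusted p = 0.0361). *Nfasc* differed by 1.56 (SE 0.662, interval 0.144 to 2.976, limma adjusted p = 0.434) and *Myh7b* by 0.60 (SE 0.203, interval 0.163 to 1.031, limma adjusted p = 0.267), and neither passed the test. Of the 4 genes 2 were called, where 0.603% of all tested genes were called, 0.21% higher and 0.393% lower. Every CD22+ library was above every α4β7− CD22− library for each of the 4, as for 2.66% of all tested genes. Nothing is read from these counts against the percentages, because the CD22+ and α4β7− CD22− values had entered the choice. By the difference from α4β7+, the members were at ranks 6 to 12 in CD22+ and 3 to 32 in α4β7− CD22−. The intervals and limma adjusted p values above do not allow for this choice.

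The margin of the calls depended on the model, and the spread of *Nfasc* was widest among the α4β7+ libraries. With the replicate number as a block over all 12 libraries, those of α4β7+ included, limma adjusted p was 0.00344 for *B3galt5* and 0.00827 for *Klra17*. The losses given next are from the model without the block. The *B3galt5* call was lost without α4β7− CD22− replicate 1 (limma adjusted p = 0.0919), 2 (0.0761), or 3 (0.0705), or without CD22+ replicate 2 (0.0688), 3 (0.0591), or 4 (0.08). The *Klra17* call was lost without α4β7− CD22− replicate 2 (limma adjusted p = 0.129) or 3 (0.0965), or without CD22+ replicate 1 (0.108), 2 (0.0791), or 4 (0.111). The difference itself stayed between 1.46 and 1.81 for *B3galt5* and between 1.41 and 1.96 for *Klra17* when any library was left out. *Nfasc*, whose error in the model of 3 subsets includes the scattered α4β7+ values, passed with only the subsets compared in the model (difference 1.56, limma adjusted p = 0.00264), and *Klra17* then did not (1.72, limma adjusted p = 0.0607).

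**Figure D3:**
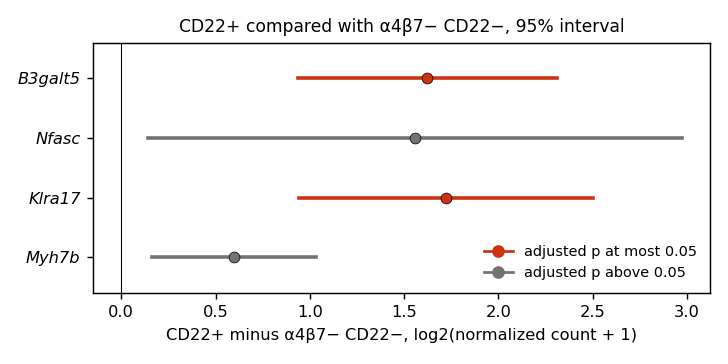
Difference of CD22+ from α4β7− CD22− eosinophils in log2(normalized count + 1) for the 4 genes, with 95% intervals from the limma model of the 12 libraries. These intervals do not allow for how the genes were chosen. Red marks an adjusted p of at most 0.05 (*B3galt5* and *Klra17*); the interval of *Nfasc*, 0.144 to 2.976, is the widest.

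Genes of the families and pathways of each member were examined from lists of 151 genes in all, of which 99 passed the filter. In α4β7− CD22− compared with α4β7+, 13 of these 99 (13.1%) were called by limma, 6 higher and 7 lower, where 8.05% of all tested genes were called, 3.7% higher and 4.35% lower. In CD22+ compared with α4β7+, 21 of 99 (21.2%) were called, 9 higher and 12 lower, where 12% of all tested genes were called, 5.6% higher and 6.39% lower. Both comparisons share the α4β7+ libraries. In CD22+ compared with α4β7− CD22−, limma called 0 of 99, with 11 at an unadjusted p under 0.05. The members are not set against these genes, since their own differences from α4β7+ were the reason for choosing them.

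Of the listed glycosyltransferases, which include enzymes of other chains than those made by *B3galt5*, 35 of 43 were tested. In CD22+ against α4β7+, 4 rose and 5 fell, with a list median of -0.11 beside 0.01 for all tested genes, and in α4β7− CD22− against α4β7+, 3 rose and 2 fell, with a median of -0.07. *Gcnt2*, the I-branching enzyme, was the most abundant, with a mean of 15240, 21860, and 23750 in α4β7+, α4β7− CD22−, and CD22+, and rose by 0.64 in CD22+ (limma adjusted p = 1.98e-05). *B3gnt7*, which extends lactosamine chains, rose by 1.29 in CD22+, from a mean of 255 to 619, and *St6galnac5*, a sialyltransferase of gangliosides, rose by 1.07, from 448 to 945.

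The enzymes that fell in CD22+ against α4β7+ included *St3gal4*, a sialyltransferase that caps galactose (1364 to 662, -1.08), *Gcnt1*, the core 2 branching enzyme (2468 to 1503, -0.71), and *Fut4*, a fucosyltransferase of the Lewis x epitope (12060 to 7903, -0.61). Outside the naming rule and chosen after their values were seen, *B3galnt2* fell by 0.85, *St3gal5*, which makes the ganglioside GM3, fell by 1.37, and *Fut1* rose. *Fut1* adds the fucose of the H antigen to galactose, and its mean was 34.1 ± 13.2, 231 ± 85.2, and 273 ± 48.1 (SD, n = 4), differences of 2.73 (SE 0.285, limma adjusted p = 1.34e-05) and 3.02 (limma adjusted p = 2.12e-06). It was also at rank 15 in the ranking above. *B3galt4* and *B3galt6*, of the same galactosyltransferase family, were not called, with differences of CD22+ from α4β7+ of -0.47 (interval -0.917 to -0.027) and -0.23 (interval -0.79 to 0.32).

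Of the L1 family and the partners of neurofascin, 23 of 25 were tested, and 2 rose and 1 fell in each comparison with α4β7+, with list medians of 0.00 and 0.03. The genes that rose encode ankyrins, the adaptors that tie neurofascin to the spectrin skeleton. *Ank3* (ankyrin-G) had a mean of 560, 968, and 1190 in α4β7+, α4β7− CD22−, and CD22+, and rose by 0.80 (limma adjusted p = 0.00183) and 1.10 (limma adjusted p = 6.9e-05). *Ank2* (ankyrin-B) had a mean of 118, 195, and 195, and rose by 0.72 and 0.73. *L1cam*, a close relative of *Nfasc*, fell from 367 to 202 and 188 (-0.90 and -0.99). The other relatives *Nrcam* and *Chl1* were near the filter, with CD22+ means of 14.6 and 20.8, and were not called. *Sdcbp*, the PDZ adaptor syntenin, was the most abundant gene of the list (means 8830, 7588, and 6518), and its differences of -0.22 and -0.44 did not reach the fold of 1.5.

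Of the killer lectin-like receptors, their signalling adaptors, and MHC class I ligands, 15 of 36 were tested. None rose and 4 fell in each comparison with α4β7+, with list medians of -0.40 and -0.29, and of the 4 that fell 3 are MHC class I genes and 1, *Klra2*, is a receptor. *H2-K1* and *H2-D1*, classical class I heavy chains, fell from 20260 to 12170 and 10350 (-0.73 and -0.97) and from 23800 to 14600 and 13010 (-0.70 and -0.87). *B2m*, the light chain of class I, fell from 17880 to 10810 and 10340 (-0.73 and -0.79). *Klra2*, an inhibitory receptor of the same family as *Klra17*, fell from 651 to 393 (-0.73, limma adjusted p = 0.00232) and 434 (-0.60, limma adjusted p = 0.0059). The remaining *Klra* genes of the list were under the filter. Markers of T, NK, and innate lymphoid cells, in which many of these receptors are known, were lower too: the 12 markers summed to 2088 to 3408 in α4β7+, 1165 to 1685 in α4β7− CD22−, and 1730 to 2303 in CD22+. Of the 11 tested, 6 were called lower in α4β7− CD22− against α4β7+ (list median -0.68), among them *Gzma* (-1.98), *Nkg7* (-1.70), and *Gzmb* (-1.47), and 1, *Gzma*, in CD22+ against α4β7+ (list median -0.27). Their part in the values of the receptor list was not tested.

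Of the myosin heavy chains and sarcomere genes, 26 of 47 were tested. In α4β7− CD22− against α4β7+, 1 rose and 0 fell, and in CD22+ against α4β7+, 3 rose and 2 fell, with list medians of 0.05 and -0.01. *Tnnt3* (fast troponin T) rose by 1.24 and 1.10, from a mean of 11.3 to 27.7 and 26.3. In CD22+ against α4β7+, *Tnni2* (fast troponin I) was also called with 1.02 and *Myh11* (smooth muscle myosin) with 1.41 (limma adjusted p = 0.0197), although the *Myh11* libraries of these subsets overlapped. *Myl6* and *Myl12a*, light chains of nonmuscle myosin, fell by 0.84 and 0.70 in CD22+. *Myh9*, the nonmuscle heavy chain, was by far the most abundant gene of the list (means 104100, 96420, and 86070) and was not called, and *Myh7*, the slow muscle heavy chain closest in name to *Myh7b*, had means of 25.3, 32.1, and 28.9 and was not called.

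**Figure D4:**
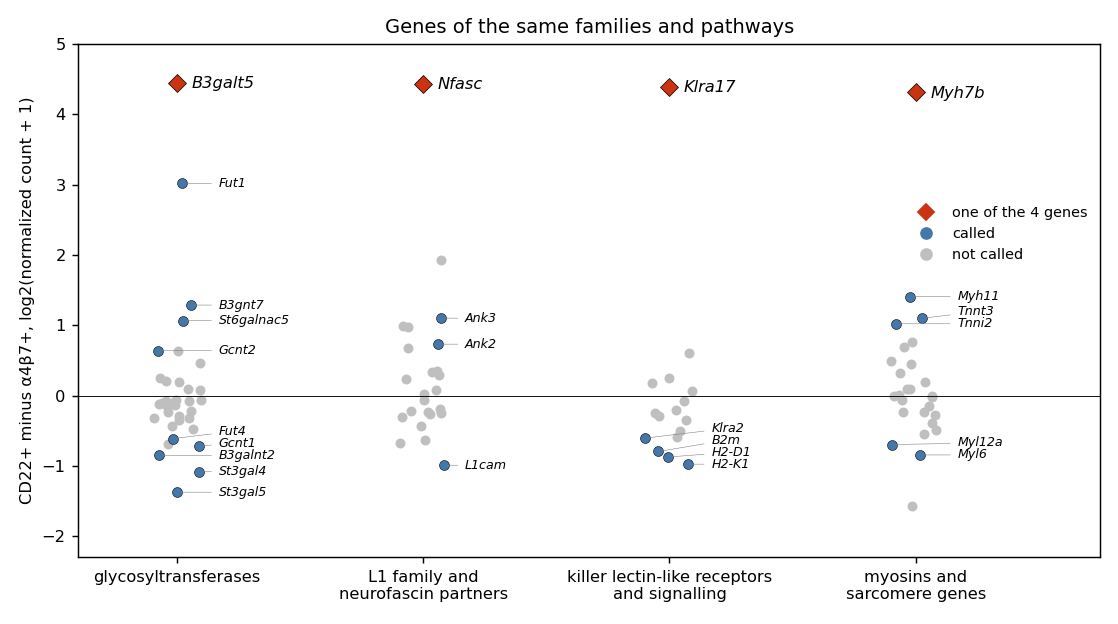
Difference of CD22+ from α4β7+ eosinophils in log2(normalized count + 1) for the tested genes of the 4 lists, with the member of each family as a red diamond, called genes in blue, and other tested genes in grey. The red diamonds, at 4.31 to 4.45, are high by the choice of the members and mark only which family is which; among the other genes the called ones run from *St3gal5* at -1.37 to *Fut1* at 3.02.

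The genes beside each member on its chromosome were compared too, with 3 taken on each side. Of these 24 neighbours 13 were tested, and limma called 0 in α4β7− CD22− against α4β7+ (1 at an unadjusted p under 0.05), 1 in CD22+ against α4β7+, and 0 in CD22+ against α4β7− CD22− (2 at an unadjusted p under 0.05), where 8.05%, 12%, and 0.603% of all tested genes were called. The 1 of 13 (7.69%) is not above that background. The called gene was *Itgb2l*, a β integrin-like gene near *B3galt5*, which fell in CD22+ from a mean of 894 to 429 (-1.03, limma adjusted p = 0.000264). The nearest tested neighbours were *Sh3bgr* (82 ± 22, 96 ± 29, and 77 ± 31; SD, n = 4) and *Igsf5* on the sides of *B3galt5*, and *Gss*, glutathione synthetase, and *Trpc4ap* on those of *Myh7b*, and none was called. *Trpc4ap* overlaps the end of *Myh7b* on the opposite strand, and its means were 2355, 2569, and 2489. *Cntn2* and *Lrrn2*, beside *Nfasc*, and *Gm44248* and *Gm17631*, which overlap *Klra17* on the opposite strand, were under the filter, and how the counting used strand is not given in the sources used here.

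**Figure D5:**
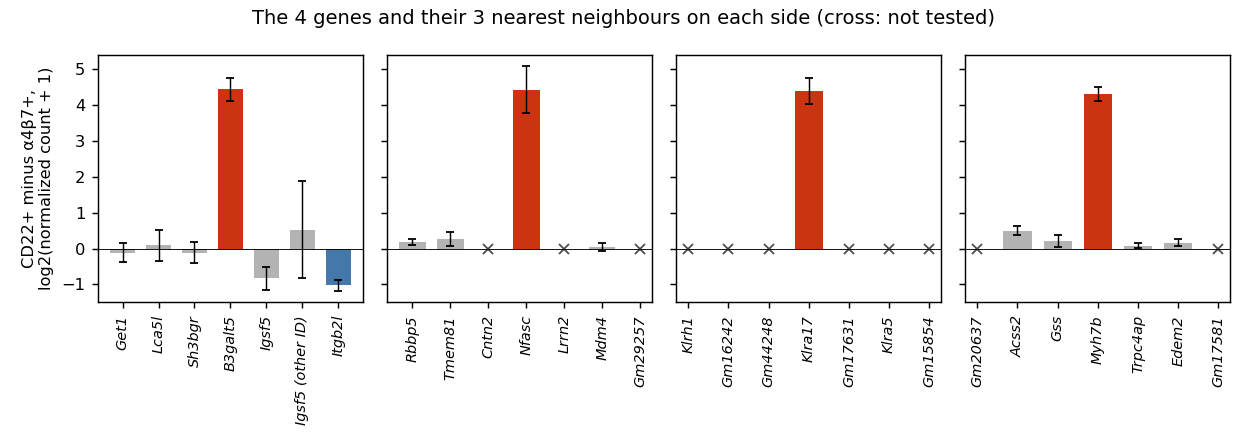
Difference of CD22+ from α4β7+ eosinophils in log2(normalized count + 1) for the 4 genes (red) and the 3 genes on each side in chromosome order, with bars for the estimate and error bars for its SE; a cross marks a gene under the filter, and blue marks a called neighbour. The red bars are high by the choice of the members and mark only their place; *Itgb2l*, the 1 called neighbour, is at -1.03.

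The genes with the most similar profile were found by the mean absolute difference of z-scored log2 values over the 12 libraries, for which the median over all tested genes was 1.09 to 1.10. For *B3galt5* these were *Zfp53* (0.13), *2900026A02Rik* (0.158), and *Zfp709* (0.16), and for *Nfasc* they were *Clock* (0.181), *Cd300c* (0.185), and *Rad51d* (0.194). For *Klra17* they were *Lat2* (0.117), *Prdm1* (0.127), and *Galm* (0.139), and for *Myh7b* they were *Tspan13* (0.097), *Dpep2* (0.111), and *Fndc5* (0.121). Between members the measure was 0.269 (*Klra17* and *Myh7b*) to 0.415 (*B3galt5* and *Nfasc*), which placed each member at rank 74 to 370 of the 15249 genes by likeness to another, and the choice of genes that rise favours such likeness. The likeness ignores size, as *Tspan13* differed by 1.25 between CD22+ and α4β7+ and *Myh7b* by 4.31. These are descriptions over libraries that share 3 subsets.

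Markers of the cell types in which the members are best known were summed per library. The 12 enterocyte markers summed to 2927 to 7064, 1922 to 4694, and 1160 to 7762 in α4β7+, α4β7− CD22−, and CD22+, ranges that overlapped. Of these 12, 0 were called higher in the 3 comparisons (1, 1, and 0 at an unadjusted p under 0.05 in either direction), and *Sis*, sucrase-isomaltase, was called lower in α4β7− CD22− against α4β7+ (-1.40, limma adjusted p = 0.0386). The 11 neuron and glia markers summed to 96.4 to 113, 104 to 189, and 95.7 to 177, with 9 of 11 at a mean under 10 over the libraries, beside *Nfasc* at 623 to 809 in CD22+. The 11 dendritic cell markers summed to 3120 to 5196, 3335 to 5905, and 3146 to 8041, with 0 of 11 called by limma (1, 1, and 0 at an unadjusted p under 0.05 in the 3 comparisons). The 11 muscle markers summed to 235 to 517, 286 to 430, and 324 to 438, with 6 of 11 at a mean under 10 over the libraries, and 1 of 5 tested, *Myh11*, was called higher in CD22+.

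The sum of the neutrophil markers moved with the 4 genes, although its members went both ways. The 10 markers summed to 828 to 981, 1393 to 1593, and 1637 to 2220, and 2 of the 5 tested, *Cxcr2* and *Ngp*, were called higher in both comparisons with α4β7+. *Cxcr2*, a chemokine receptor, made up most of the sum, with means of 780, 1338, and 1772, while *S100a9* and *Mmp8* were called lower in CD22+, the other 5 had a mean under 10 over the libraries, and 1 of these, *Elane*, was at 0 in every library. Of the 9 macrophage markers 1, *Cd68*, was called higher in both comparisons, with sums of 12350 to 13130, 11650 to 13660, and 12840 to 16300. The part of these markers in the members' values was not tested.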

How the data were processed

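RNA of sorted SI eosinophils was measured in 12 libraries, 4 for each of 3 subsets taken from the population label. The submitters' processing notes name Trimmomatic 0.39, kallisto 0.46.1, DESeq2 1.38.2, and the mouse build mm10 (GRCm38). The deposited values are a normalized signal per gene that the authors obtained by normalizing Kallisto counts with DESeq2. They are not whole reads, so tests for raw counts were not run, and a read was worth about 0.852 to 1.159 normalized counts. Of the 36047 identifiers, 35968 matched GENCODE, and promoters came from RefSeq.

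The filter kept 15249 genes whose normalized count averaged more than 10. They were fitted on log2(normalized count + 1) by limma 3.58.1 (R 4.3.3), in 1 model of the 12 libraries with a variance trend. Benjamini-Hochberg adjustment covered these genes in each comparison, and a call needed an adjusted p of 0.05 or less together with a fold of 1.5 or more. The script was tested on simulated data. The members and lists were chosen with earlier results of these data known. The genes named are the 4 members, the sort genes, the called genes of each list (the 6 with the highest mean where more than 6 were called) with its most abundant gene, the nearest and called neighbours, and the 3 genes most like each member. A few other genes are named to place the members in their families. Libraries are biological replicates per the labels, and no library pair held identical values. The sources do not say whether the same number marks the same mice. Residuals from the subset means of same-numbered libraries correlated at 0.135 to 0.203 between CD22+ and α4β7− CD22−, each of 4 pairs above 0.1. In the other comparisons they correlated at -0.059 to 0.182. Differently numbered libraries were not compared in this way, so these values do not show that the numbers mark pairs. The main model had no replicate block, and the block, fitted as an alternative, covered all 3 subsets. Alternatives were a pseudocount of 0.1 or 10, no or a stricter filter, 2 rescalings, limma without trend, the adjusted p alone, only the subsets compared, a replicate block, and each library left out. Python 3.11.15 with pandas 2.3.3 and matplotlib 3.10.9 served for summaries and plots.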

Additional observations from a re-analysis of the deposited data

Results flagged for a closer look

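In 81 groups of 4 libraries (27 named genes in 3 subsets), 6 held a highest or lowest library set far apart for the range by Dixon's criterion. The measure is the gap to the nearest other library. For normally distributed values chance alone gives about 1 in 20. Untransformed normalized counts need not be so distributed, so the 6 are not set against that share. *Nfasc* in α4β7+ was 1 of the 6, with replicate 1 at 193.9 normalized counts and a gap of 0.859 of the range. In that library the neuron and glia markers summed to 103, within the 96.4 to 113 of the α4β7+ libraries, and *B3galt5* was at its lowest value, 10.46. By the same measure 168 of the 15249 tested genes (1.1%) stood apart as high in that library, beside 222, 100, and 136 in the other α4β7+ libraries. Of the 471 genes called higher in both other subsets, 5 were among the 168.

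*Ank2* was lowest in α4β7+ replicate 2, at 96.15 (gap 0.896 of the range), and highest in CD22+ replicate 3, at 213.4 (gap 0.916). *H2-K1* was highest in CD22+ replicate 3, at 12500 (gap 0.906). *Klra2* was highest in α4β7+ replicate 2, at 711.1 (gap 0.861). *Myh9* was highest in CD22+ replicate 1, at 94230 (gap 0.838).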

How the results depend on the processing

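In CD22+ against α4β7− CD22−, the differences of the 4 genes kept their direction under each of the 10 alternatives and the 12 fits that left out a library, and *Nfasc* and *Myh7b* stayed uncalled except as given here. *Klra17* lost its call without the filter on low values (1.72, limma adjusted p = 0.0528), with quantile normalization (1.68, adjusted p = 0.0589), without trend (1.72, adjusted p = 0.105), and with only the subsets compared in the model (1.72, adjusted p = 0.0607). *B3galt5* lost it without trend (1.62, adjusted p = 0.0992), and *Nfasc* gained one with only the subsets compared (1.56, adjusted p = 0.00264). The adjusted p over the alternatives ran from 0.00344 to 0.0992 for *B3galt5*, 0.00264 to 0.615 for *Nfasc*, 0.00827 to 0.105 for *Klra17*, and 0.215 to 0.422 for *Myh7b*. With each library left out, the difference ran from 1.46 to 1.81 for *B3galt5*, from 1.44 to 1.69 for *Nfasc*, from 1.41 to 1.96 for *Klra17*, and from 0.43 to 0.71 for *Myh7b*, and *B3galt5* lost its call in 6 and *Klra17* in 5 of 12 fits. A pseudocount of 10 lowered every difference of the 4 genes from α4β7+. For *B3galt5*, *Nfasc*, *Klra17*, and *Myh7b* in this order it gave 2.42, 2.42, 2.04, and 3.24 in α4β7− CD22− and 4.00, 3.94, 3.64, and 3.82 in CD22+. The fall was more than 1.5-fold for *Klra17* in both comparisons. With the adjusted p alone, 24 in place of 13 genes of the lists were called in α4β7− CD22− against α4β7+, and 2 in place of 1 neighbour in CD22+ against α4β7+. The called neighbours in CD22+ numbered 1 to 2 with each library left out (2 without CD22+ replicate 3). The replicate block changed no call of the 4 genes, with limma adjusted p = 0.00344 for *B3galt5*, 0.321 for *Nfasc*, 0.00827 for *Klra17*, and 0.266 for *Myh7b*. The number of list genes called stayed at 13, 21, and 0. Over all tested genes, the number called in CD22+ against α4β7− CD22− went from 92 to 100. The cause of these changes was not tested. Values of the α4β7+ subset near the floor of 3 reads limit the precision of its ratios.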
